A study of Homo sapiens with 8 samples.

Results

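Chromosome 19 holds the densest collection of zinc finger genes in the human genome, and their promoters are described here in the breast epithelial line MCF10A before and during treatment with TGFβ1. The members are the protein-coding GENCODE genes of chromosome 19 whose symbol is ZNF or ZFP followed by digits, with or without a closing letter. They number 251, of which 246 are ZNF and 5 are ZFP genes, and make up 17.0% of the 1476 protein-coding genes of the chromosome, out of 19970 protein-coding genes measured in all. The remaining 1225 protein-coding genes of chromosome 19 and the 276 ZNF and ZFP genes on other chromosomes served for comparison.

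MCF10A is an immortalised, non-tumorigenic human mammary epithelial line, used here with wild-type genotype and grown in medium with horse serum, EGF, hydrocortisone, cholera toxin and insulin. Chromatin accessibility was measured by ATAC-seq, in which a transposase inserts adapters into open DNA, in solvent-treated cells and after 6, 24 and 72 h of 5 ng/ml TGFβ1, a cytokine that drives epithelial-mesenchymal transition in these cells. Each condition had 2 libraries, 8 in all. By the labels the solvent cells belong to time 0, but the study's own legend has them in solvent for 72 h. The authors called peaks once per condition on both libraries together, so the data are 4 peak lists without any value per replicate. No difference between lists was therefore tested here, and every statement on time compares 1 list with another. Peaks numbered from 86209 in the solvent list to 118433 in the 24 h list. The size of a peak is given as its AUC, the area under the peak caller's significance curve, which rises with read depth and with peak width. The smallest AUC was 200, the authors' threshold. The paper states the sequencing depth per sample, but the reads kept behind each list are unknown. The 95% intervals given below for shares (Wilson) and medians (order statistics) cover counting over genes only, which are not replicates. All 8 of 8 mammary epithelial marker genes, such as KRT5 and TP63, had a promoter peak in all 4 lists. So did 70.8% of all protein-coding promoters, so this share says little about cell identity. Of 7 marker genes of other cell types, 4 (ALB, INS, CD3E and MYH6) had no promoter peak. GFAP and PECAM1 had one in all 4 lists and PTPRC in TGFβ1 lists only. In solvent, the AUC of GFAP (1626) and PECAM1 (1351) exceeded that of TP63 (451) and KRT14 (357). Both lay below LAMB3 (33219), KRT5 (8598), ITGA6 (4293), KRT17 (3145), CDH1 (2916) and EPCAM (2632).

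Most proteins of this kind carry a KRAB domain at one end and an array of C2H2 zinc fingers at the other. The fingers read DNA, often within transposable elements, and the KRAB domain recruits the corepressor TRIM28, which brings the histone methyltransferase SETDB1 and HP1 proteins. The genes arose through repeated tandem duplication and lie in clusters. The label was checked against the proteins encoded by the canonical transcripts. Of the 251 proteins, 250 contained at least 1 C2H2 finger, with a median of 12 and a largest number of 36 in ZNF208. The exception was ZFP36, also known as tristetraprolin, which destabilises mRNAs and binds RNA through CCCH fingers. It is a member by symbol only, and results that rest on it are given with and without it. KRAB-type letters (the A box of the domain, matched by a pattern) were found in 183 members. The pattern misses divergent KRAB domains, and its spacing was widened after the data were seen, since the spacing first written matched 9.

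Promoter sequences of 7 members are shown because the results below turn on them. ZNF584 was among the open promoters of largest summed AUC, ZNF285 had the largest ratios to solvent, ZNF880 and ZNF671 had a peak in TGFβ1 lists only, ZFP36 had the lowest ratios, and ZNF208 and ZNF43 were closed. They are RefSeq sequences of GRCh38.p14 around the transcription start site (TSS), read along the gene's strand. Capitals mark matches, on either strand, to the motifs described after them.
ZNF584 (chr19:58408499-58408678, plus strand): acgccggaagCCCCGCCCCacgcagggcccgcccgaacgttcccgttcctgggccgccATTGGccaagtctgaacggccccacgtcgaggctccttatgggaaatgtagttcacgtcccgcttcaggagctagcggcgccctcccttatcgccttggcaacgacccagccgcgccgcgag
ZNF285 (chr19:44401579-44401758, minus strand): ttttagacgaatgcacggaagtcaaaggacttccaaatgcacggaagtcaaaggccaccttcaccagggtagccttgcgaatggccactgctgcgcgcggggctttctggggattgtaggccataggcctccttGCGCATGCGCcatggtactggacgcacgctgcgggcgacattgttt
ZNF880 (chr19:52369767-52369946, plus strand): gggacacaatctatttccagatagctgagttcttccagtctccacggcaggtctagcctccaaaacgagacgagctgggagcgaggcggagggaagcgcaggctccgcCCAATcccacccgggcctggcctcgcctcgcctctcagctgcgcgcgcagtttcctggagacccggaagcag
ZNF671 (chr19:57727595-57727774, minus strand): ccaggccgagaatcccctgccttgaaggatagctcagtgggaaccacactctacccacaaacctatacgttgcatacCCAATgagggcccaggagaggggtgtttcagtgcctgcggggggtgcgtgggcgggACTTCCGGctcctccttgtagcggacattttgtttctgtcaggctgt
ZFP36 (chr19:39406697-39406876, plus strand): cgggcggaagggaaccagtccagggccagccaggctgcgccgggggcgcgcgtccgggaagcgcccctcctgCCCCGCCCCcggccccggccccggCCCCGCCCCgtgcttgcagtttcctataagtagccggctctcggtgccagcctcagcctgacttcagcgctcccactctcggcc
ZNF208 (chr19:22010920-22011099, minus strand): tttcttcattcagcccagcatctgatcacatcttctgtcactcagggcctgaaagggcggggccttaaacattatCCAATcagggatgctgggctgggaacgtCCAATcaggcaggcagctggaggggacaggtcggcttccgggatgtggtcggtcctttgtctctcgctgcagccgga
ZNF43 (chr19:21836158-21836337, minus strand): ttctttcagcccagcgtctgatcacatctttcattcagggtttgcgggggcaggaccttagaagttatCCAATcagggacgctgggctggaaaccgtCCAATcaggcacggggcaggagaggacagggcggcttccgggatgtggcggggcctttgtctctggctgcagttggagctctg

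The capitals in ZNF208 and ZNF43 are pairs of CCAAT boxes, the element of the factor NFY. Those in ZNF880 are a single CCAAT box, and ZNF671 holds a CCAAT box and an ETS element. In ZNF285 the run of capitals is an NRF1 element that matches on both strands, so its matches overlap. ZFP36 holds a pair of GC boxes of the SP and KLF family, and ZNF584 a GC box and a CCAAT box. RefSeq promoters, each 250 bases before to 50 bases after the TSS, could be matched for 219 of the 251 members. Among these, the ETS letters CCGGAAGT stood in 20.5% (45 promoters), against 6.33% of all 15316 RefSeq promoters of protein-coding genes and 4.54% of the other chromosome 19 promoters. The NFY letters ATTGG stood in 53.0% of members, against 36.6% of all promoters. The TATA box letters TATAAA went the other way, with 4 of 219 members (1.83%) against 9.64% of all promoters. The other motifs searched were held at shares closer to the whole set in percentage points. They were GGGGCGGGG (SP and KLF, 24.2% of members against 22.8%), AAGATGGCG (YY1, 3.65% against 2.80%), GCGCATGCG (NRF1, 2.74% against 2.74%), TGACGTCA (CREB, 3.20% against 2.64%), TCTCGCGAG (ZBTB33, 0.913% against 1.08%), ACTACAANT (ZNF143, 4.11% against 2.02%) and TGANTCA (AP-1, 6.39% against 5.75%). By ratio, the share of the rarer ZNF143 letters stood further from that of all promoters than the NFY share did. Between open and closed members, the ETS letters stood in 39 of 176 open promoters (22.2%) and 6 of 43 closed ones (14.0%), and the NFY letters in 51.7% and 58.1%. A match is a run of letters, and factor binding was not measured.

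Open and closed promoters were then laid out along the chromosome. A promoter was called open when a region of the 4 merged lists lay within 1 kb of any TSS of the gene, and closed otherwise. Of the 251 members, 198 were open (78.9%, 95% interval 73.4 to 83.5), 196 of them in all 4 lists, and 53 were closed. The other protein-coding genes of the chromosome were open at 858 of 1225 promoters (70.0%, 67.4 to 72.5), and zinc finger genes of other chromosomes at 245 of 276 (88.8%). Over all 19970 protein-coding genes the share was 74.0%, which lies within the members' interval. Open in some lists but not all were 2 of the 198 open members (1.01%) and 51 of the 858 others (5.94%). No member lost its promoter peak at any time, nor did any zinc finger gene of other chromosomes. Losses were rare throughout, with 0.0351%, 0.125% and 0.305% of all protein-coding promoters at 6, 24 and 72 h. The gap in open share depended on the distance allowed. With a window of 3 kb, members were open at 79.3% and the others at 78.9%, and with only the canonical TSS of each gene the shares were 77.7% and 62.0%.

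Peaks at members sat on the start site itself. In 197 of the 198 open members a merged region overlapped a TSS. Members had a median of 5 TSSs and at most 25, any of which could be the one overlapped. This share was not computed for other genes. The one farthest inside the 1 kb limit was ZNF404, 20 bp away, with an AUC of 882 in solvent and of 1201, 1473 and 1157 at 6, 24 and 72 h. The closest member outside was ZNF814, whose nearest region lay 1730 bp away and was present at 72 h only, with an AUC of 243. Next came ZNF132 at 5558 bp, also with a region in the 72 h list only. No member lay between these distances, so the call of open or closed was the same at 500 bp and 1 kb. The summit of the strongest solvent peak lay a median of 45 bp from the nearest TSS in members and 114 bp in the others, and within 100 bp in 76.0% and 46.8%. Closed members were far from any accessible region. Their nearest merged region was a median of 59.9 kb away, and 4 of 53 had one within 10 kb. Of the 367 closed promoters of other chromosome 19 genes, 62.4% had a region within 10 kb, with a median distance of 6.54 kb.

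**Figure D1:**
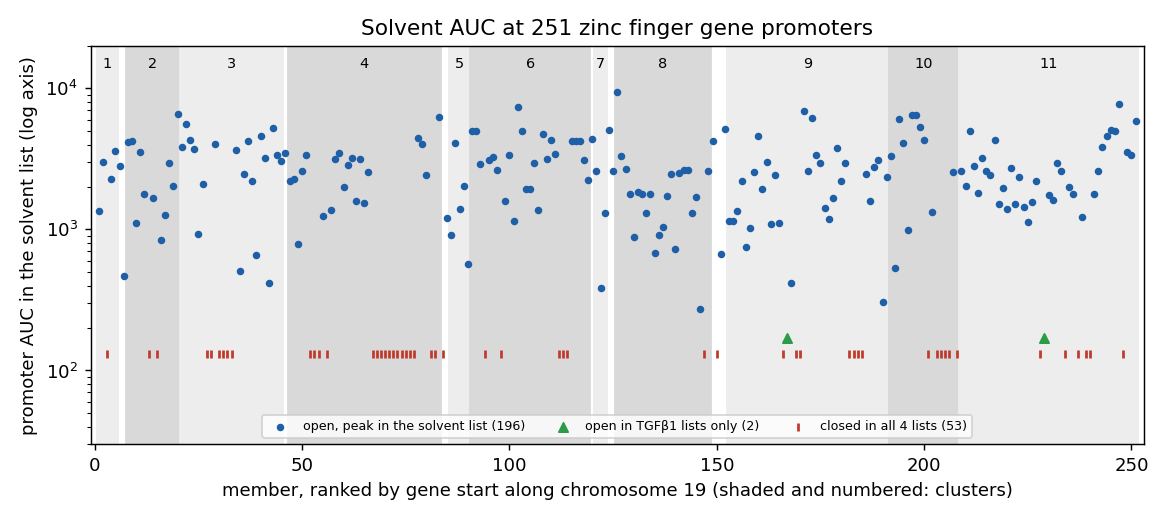
Each of the 251 members is placed by its rank along chromosome 19 (horizontal axis) against its promoter AUC in the solvent list (vertical log axis, arbitrary units). The blue points are the 196 members with a solvent peak, red ticks the 53 closed ones and green triangles the 2 with a peak in TGFβ1 lists only (ticks and triangles stand at fixed heights below the data), and the densest row of red ticks is the run of 11 closed members in cluster 4.

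Members were grouped into clusters by ending a cluster where the next gene start lay over 500 kb away. This gave 11 clusters of at least 3 members, holding 239 of the 251 genes, with 12 members outside, of which 10 were open. Cluster 4, next to the centromere (chr19:19668796-24129968), had the lowest open share. Of its 37 members 20 were open (54.1%) and 17 closed. Next lowest was cluster 10, with 11 of 17 open (64.7%). It also had the fewest accessible regions per Mb, 11.7, against 19.6 to 63.9 in the other clusters. These are not counts per gene. Cluster 6 held 32 regions, 29 members and 3 other protein-coding genes over 1.64 Mb. Cluster 4 was sparser in genes, with 52 regions, 37 members and 3 others over 4.46 Mb. Its open members included ZNF91 and ZNF93, known for binding the SVA and L1 retrotransposons. ZNF91 had an AUC of 4030 in solvent and of 4731, 4986 and 4533 in the TGFβ1 lists. ZNF93 had 3380, 4483, 4484 and 3836. Both were above the members' solvent median of 2576. In the same cluster ZNF43 to ZNF730 formed the longest closed run, 11 members over 1.34 Mb (chr19:21804946-23147221) without 1 merged region in it. The run was ZNF43, ZNF208, ZNF257, ZNF676, ZNF729, ZNF98, ZNF492, ZNF99, ZNF723, ZNF728 and ZNF730. ZNF208 and ZNF729, the members with the most fingers (36 and 34), are both in it, while ZNF91 with 31 fingers was open. The other closed members of cluster 4 were ZNF682, ZNF90, ZNF486, ZNF626, ZNF681 and ZNF726.

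**Figure D2:**
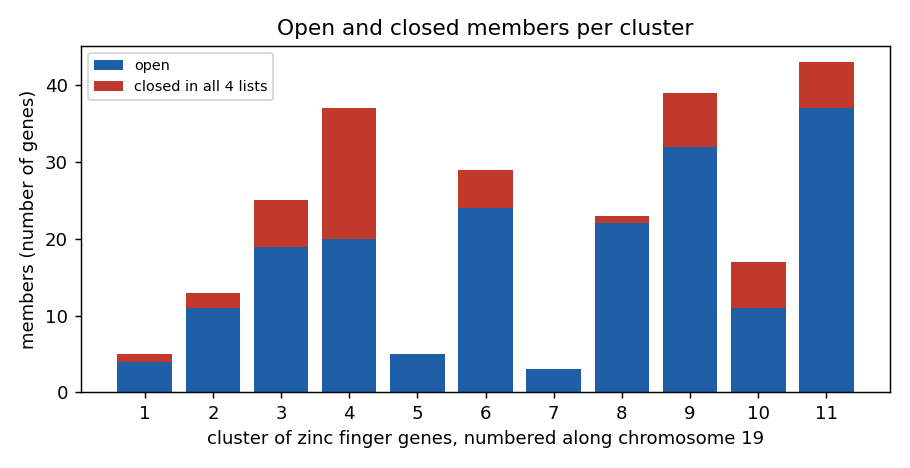
Bars give the number of members (vertical axis) in each of the 11 clusters in order along chromosome 19 (horizontal axis), split into open (blue) and closed in all 4 lists (red). Cluster 4 had 17 closed members of 37, and clusters 5 and 7 had none.

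The reads kept by the authors had to pass a mapping-quality limit, so repeated sequence can lower a count of reads. The share of 32-base words around the TSS (500 bp on each side) that occur once in the genome was therefore set beside the calls. In cluster 4 its median was 80.5% at closed members and 89.6% at open ones. In the rest of the members it was 100% at closed and 99.5% at open ones. No member was under 50%, and the lowest closed one had 60.4%. The part of mappability in the closed calls of cluster 4 was not tested.

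Closed members elsewhere also came in runs. Outside cluster 4, 21 of the 36 closed members lay in 7 runs of 2 or more, and 15 stood alone. Over all members, cluster 4 included, 198 of the 250 neighbouring pairs had the same state, and in 27 of these both were closed. With 78.9% of members open, many pairs would match in any order. Whether the runs exceed those of a random order was not tested. ZNF763, ZNF433, ZNF878 and ZNF844 in cluster 3 formed a run of 4, as did ZNF415, ZNF347, ZNF665 and ZNF677 in cluster 9 and ZNF667, ZNF471, ZFP28 and ZNF470 in cluster 10. ZNF569, ZNF570 and ZNF793 in cluster 6 formed a run of 3. Outside cluster 4 the pairs were ZNF439 with ZNF69, ZNF534 with ZNF578, and ZNF606 with ZNF135. The remaining closed members stood alone among open neighbours. They were ZNF556, ZNF177, ZNF560, ZNF536, ZFP82, ZNF382, ZNF229, ZNF541, ZNF610, ZNF582, ZNF835, ZNF154, ZNF814, ZNF418 and ZNF132, besides ZNF626 of cluster 4. Closed members past the first 30 along the chromosome were named after their values were seen. ZNF536, a gene best known from neurons, and ZNF541, known from the testis, lay outside the clusters. ZNF154 and ZNF582 are known for promoter methylation in tumours, but DNA methylation was not measured here. At the other end, cluster 8 (chr19:43525497-44500524) had 22 of 23 members open, ZNF229 being the exception, and all 5 members of cluster 5 and all 3 of cluster 7 were open. The longest open run held 32 members.

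By the median, closed members were nearly as rich in CpG as open ones, whereas closed promoters of other genes were poor in CpG. CpG-dense promoters, often called CpG islands, are commonly accessible in most cell types. The ratio of observed to expected CpG around the canonical TSS (500 bp on each side) had a median of 0.72 at open members and 0.67 at closed members, against 0.73 at open and 0.33 at closed promoters of other chromosome 19 genes. Among the closed members, 36 of 53 (67.9%) had a ratio over 0.6, compared with 163 of 198 open members (82.3%). Of the closed others, 65 of 367 (17.7%) did. Read the other way, CpG-dense members were open at 163 of 199 promoters (81.9%, 76.0 to 86.6), and CpG-dense others at 629 of 694 (90.6%, 88.2 to 92.6). At CpG-poor promoters the order turned, with 35 of 52 members open (67.3%, 53.8 to 78.5) and 229 of 531 others (43.1%, 39.0 to 47.4). The CpG ratio belongs to the canonical TSS, but a promoter counted as open at any TSS, so sequence and peak can belong to different starts. ZNF404 (ratio 0.21) has its canonical TSS at 43883964 and its region at 43901405-43902180. Shares by CpG class were not recomputed with the canonical TSS only. The intervals of both classes treat genes as independent, although members arose by duplication and some share regions, and the differences were not tested. Cluster 4 differed in composition as well. Only 6 of its 17 closed and 2 of its 20 open members passed 0.6, whereas 30 of the 36 closed members elsewhere did. Members with KRAB-type letters were open at 138 of 183 promoters (75.4%, 68.7 to 81.1) and those without at 60 of 68 (88.2%, 78.5 to 93.9). Members without the letters were unevenly spread. Most members of cluster 8 had no match, among them ZNF224, ZNF225, ZNF226, ZNF234 and ZNF235, and 22 of its 23 members were open. The part of cluster and of KRAB domains missed by the pattern in this difference was not tested. The number of fingers was alike, with a median of 12 in open and 13 in closed members.

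Open members had a smaller summed AUC and covered less width than the other open promoters of the chromosome. The median promoter AUC in solvent was 2576 over 196 members, 3055 over 820 other chromosome 19 promoters and 3333 over 237 zinc finger genes elsewhere. On the log2 scale the medians of members and of the chromosome's other promoters differed by -0.25. With only the strongest single peak of each promoter in place of the sum, the difference was -0.058. The peaks covered a median of 900 bp in members and 1193 bp in others, and the median AUC per base was 2.67 and 2.52, so the order of the groups turned once width was divided out. Members ranged from 274 to 9502 in solvent. The largest summed AUC was that of ZNF575 (9502, 12542, 11980 and 11633 in solvent and at 6, 24 and 72 h), whose regions also come within 1 kb of the TSS of another protein-coding gene. It was followed in solvent by ZNF584 (7736), ZNF790 (7381), ZNF808 (6922) and ZNF846 (6572). These values are sums over all regions near the TSSs of a gene, 3 for ZNF575, 2 for ZNF584, 3 for ZNF790, 2 for ZNF808 and 4 for ZNF846, and the order holds for such sums. Of the 3 regions of ZNF790, 1 is shared with the member ZNF345. The weakest members open in all lists were ZNF285 (274), ZNF813 (304), ZNF780B (381), ZNF709 (419) and ZNF528 (420). Of the 198 open members, 18 shared a region with another member and 38 with another protein-coding gene, and 107 had a region within 1 kb of no other protein-coding gene or lncRNA.

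The 2 members with a promoter peak in TGFβ1 lists only had low values. ZNF880 (chr19:52369917-52385795) had no peak in solvent, and in the TGFβ1 lists its AUC was 382, 383 and 347 in order of time. ZNF671 (chr19:57719751-57727624), a gene often methylated in cancers, had none in solvent or at 6 h, then an AUC of 510 in the 24 h list and 374 in the 72 h list. All of these lay below the lower quartile of members in each list, and a promoter in solvent just under the threshold of 200 would also have had no peak. Whether the difference exceeds the variation between libraries was not tested. Of all members, 0.398%, 0.797% and 0.797% had a peak at 6, 24 and 72 h but none in solvent, compared with 1.70%, 2.30% and 1.95% of all protein-coding promoters.

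For the time course, the log2 ratio of the AUC to solvent was taken at each promoter with a peak in both lists, and the median ratio over all regions within 3 kb of a TSS was subtracted, since these medians were above 0. The scale came to 0.44, 0.38 and 0.25 for the lists of 6, 24 and 72 h. A scaled ratio of 0 is therefore the median of those regions, and the medians over all protein-coding promoters lay at -0.035, -0.056 and -0.063. At 6 h the members' median was -0.046 (95% interval -0.072 to -0.032, 196 members), close to that of the other chromosome 19 promoters, -0.041. At 24 h the groups parted. The members' median was 0.068 (0.046 to 0.096), against -0.046 (-0.054 to -0.032) in the others and -0.049 (-0.075 to -0.022) in zinc finger genes of other chromosomes. Above 0 were 128 of 196 members (65.3%) and 38.9% of the others. At 72 h the medians were 0.0012 (-0.023 to 0.020) and -0.034 (-0.049 to -0.023). Members minus others thus came to -0.0052, 0.11 and 0.036 at 6, 24 and 72 h.

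**Figure D3:**
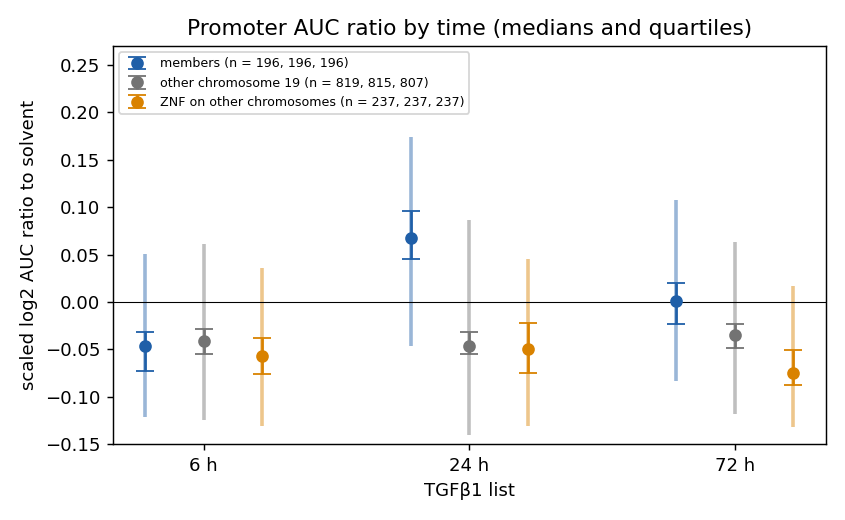
Points give the median scaled log2 AUC ratio to solvent (vertical axis) at 6, 24 and 72 h of TGFβ1 (horizontal axis) for members (blue), other chromosome 19 promoters (grey) and zinc finger genes of other chromosomes (orange). Capped bars are 95% order-statistic intervals of the median and pale bars the quartiles over genes, and at 24 h the members' median of 0.068 lies above the other medians of -0.046 and -0.049.

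The difference at 24 h was small, but many members shared it. The scaled ratio was higher at 24 h than at 6 h in 161 of 196 members (82.1%), against 382 of 807 other chromosome 19 promoters (47.3%) and 131 of 237 zinc finger genes elsewhere (55.3%). The highest of the 3 ratios was that at 24 h in 120 members (61.2%), compared with 27.9% of the others. Ratios were higher at weak promoters, and members were weaker, so promoters were compared within tertiles of solvent AUC. The members' 24 h medians were 0.19, 0.0064 and -0.060 in the lowest, middle and highest tertile (80, 75 and 41 members), and those of the others 0.066, -0.055 and -0.085. Members minus others at 24 h came to 0.12 in the lowest, 0.061 in the middle and 0.025 in the highest tertile. The shares with a higher ratio at 24 h than at 6 h were 86.3%, 85.3% and 68.3% of members and 51.2%, 49.5% and 41.6% of the others, in the same order. With AUC per base the difference at 24 h was 0.059, and the members' own median was 0.0068. When regions far from genes were used in the scale as well, the members' own median at 24 h became -0.054 (a scale shifts members and others alike, so their difference cannot change). The shares with a higher ratio at 24 h than at 6 h, or with the highest ratio at 24 h, do depend on the scale. It was 0.44 at 6 h and 0.38 at 24 h. These shares were not recomputed with another scale or per base. Clusters varied in level. Median ratios at 24 h ran from -0.086 in cluster 1 (4 open members) and -0.077 in cluster 10 (11 open members) to 0.24 in cluster 5 and 0.59 in cluster 7, which have 5 and 3 members. In the 6 clusters with over 20 members, the medians were 0.011 (cluster 3), 0.026 (cluster 4), 0.093 (cluster 6), 0.13 (cluster 8), 0.16 (cluster 9) and 0.030 (cluster 11), over 19, 20, 24, 22, 31 and 36 members with a solvent peak.

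Few members had a scaled ratio past 0.5 in size. At 6 h, 2 of 196 were higher by that much (1.02%, ZNF302 and ZNF285) against 3.56% of all 14205 protein-coding promoters with a peak in both lists, and 0 were lower against 0.338%. At 24 h, 11 members were higher (5.61%) against 5.39% of all, and 0 lower against 0.874%. At 72 h, 6 were higher (3.06%) against 5.03% of all, and 1 lower (0.510%) against 1.53%. The shares were thus near or below those of all promoters. The 11 at 24 h were ZNF285, ZNF780B, ZNF792, ZNF442, ZNF780A, ZNF579, ZNF28, ZNF480, ZNF222, ZNF302 and ZNF358, and were named after their values were seen. Their solvent AUC ran from 274 to 1425, all under the members' median. With AUC per base the counts at 24 h were 3 higher and 6 lower, and those at 6 h 2 higher and 6 lower, so that more members were lower than higher. With the scale taken over all regions, 3 were higher at 24 h.

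ZNF285 (chr19:44382298-44401608, in cluster 8) had the largest ratios of any member at all 3 times. Its AUC was 274 in solvent and 601, 775 and 730 at 6, 24 and 72 h, which gave scaled ratios of 0.69, 1.12 and 1.17. The solvent value was the lowest of the 196 members with a solvent peak, and the region also lies within 1 kb of the TSS of another protein-coding gene. ZNF175, first described in macrophages, had 1153 in solvent and then 1650, 2093 and 2148, with ratios of 0.076, 0.48 and 0.65. ZNF442 had 656, 1116, 1295 and 1195, and a ratio of 0.62 at 72 h. ZNF506 had 784, 1175, 1310 and 1366, and a ratio of 0.56. ZNF780B had 381, 622, 823 and 651, with its largest ratio, 0.73, at 24 h and 0.52 at 72 h.

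The lowest ratio at 72 h was that of ZFP36 (chr19:39406847-39409412), the gene without C2H2 fingers. Its AUC of 4360 in solvent was followed by 4627, 4456 and 3638 under TGFβ1, so that scaled ratios were -0.36, -0.35 and -0.51. It was the lowest member at all 3 times and the only one past -0.5. Without it the count of lower members was 0. It also left that count with a window of 3 kb and with peaks of an AUC of at least 400. Next came ZNF649 with 1347, 2006, 1613 and 1217 and a ratio of -0.39 at 72 h, and ZNF121 with 1266, 1788, 1806 and 1205 and a ratio of -0.32. ZNF14 had 2279, 2889, 2674 and 2218 (-0.29), and ZNF573 had 2245, 3098, 3173 and 2231 (-0.26). Before scaling, each of the 196 members had a higher AUC at 6 h than in solvent. The 6 h list was higher at most promoters, members or not. Its unscaled median log2 ratio was 0.395 in members and 0.407 over all protein-coding promoters. The same count over all promoters was not taken.

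**Figure D4:**
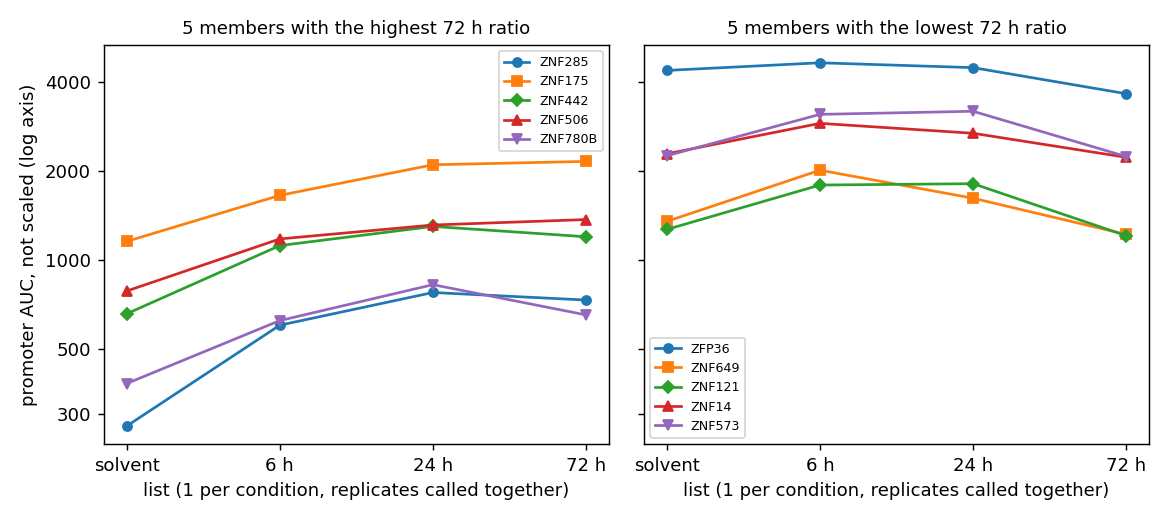
Lines give the unscaled promoter AUC (vertical log axis) in the solvent, 6 h, 24 h and 72 h lists (horizontal axis) for the 5 members with the highest (left) and the lowest (right) scaled ratio at 72 h. ZNF285 went from 274 to 730 and ZFP36 from 4360 to 3638, and there are no error bars because each list pools both libraries.

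The other open members fixed by name had ratios within 0.5 of 0. ZNF274, which binds the 3' ends of other zinc finger genes and recruits SETDB1 there, had an AUC of 2584, 3341, 3264 and 2667 and scaled ratios of -0.071, -0.043 and -0.20. ZNF331, an imprinted gene, had 2361, 3651, 3350 and 2780 and ratios of 0.19, 0.12 and -0.011. The ratios of ZNF91 were -0.21, -0.073 and -0.077 and those of ZNF93 -0.034, 0.028 and -0.064. The genes of the KRAB corepressor machinery were set beside the members. All 17 of 17 had a promoter peak in all 4 lists, against 70.8% of all protein-coding promoters. At any time 0 of the 17 passed 0.5 in either direction. Over all promoters 3.56%, 5.39% and 5.03% were higher by that much at 6, 24 and 72 h, and 0.338%, 0.874% and 1.53% lower. At such shares few of 17 genes would pass. The median ratios of the 17 genes were 0.0030, -0.053 and 0.021. TRIM28, itself on chromosome 19, had an AUC of 5088, 6715, 6817 and 5925.

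Inside the genes, away from their own promoters, accessible sites were rare in members. Promoters of other genes that lie inside a gene body were not left out. Over 7.14 Mb of gene body more than 1 kb from each TSS of the gene, the solvent list had 48 peaks and the lists of 6, 24 and 72 h had 63, 68 and 80. This is 0.672 per 100 kb in solvent and 1.12 at 72 h. The other genes of the chromosome, 1202 in this count, had 4.72 and 5.52 per 100 kb. The number in members at 72 h was 1.67 times that in solvent, and 1.17 times in the others. A member gene held such a peak in 28 cases (11.2%) in solvent and in 46 (18.3%) at 72 h, compared with 38.1% and 42.8% of the other genes. These are counts of peaks past a threshold in lists of different length, and the part of depth in them was not tested.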

How the data were processed

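ATAC-seq peaks of 8 MCF10A libraries were used as 4 deposited lists. Per the study's methods and the submitters' processing notes, the authors trimmed paired reads (Trimmomatic 0.38), mapped them to GRCh38 (Bowtie2 2.4.5), removed duplicates (Picard) and mitochondrial or low mapping-quality reads (SAMtools 1.4.1), and called peaks per condition on both replicates together (Genrich 0.5), removing ENCODE blacklisted regions. The deposited signal value, the AUC, was not normalized between lists by the authors. The condition of each list was read from its name.

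Lists were merged at an overlap of 1 bp into 126658 regions, 3432 of them on chromosome 19. TSSs came from GENCODE 44. The AUC was summed per promoter and list. Members and gene lists were chosen with earlier results of these data known. Named were the 5 members at each end of solvent AUC and of the 72 h ratio, gained promoters, the first 30 closed members and 6 fixed genes. Shares carry Wilson and medians order-statistic intervals of 95%. No test was run, because the lists used here hold no values per replicate, and the authors' own per-region tests were not used. Canonical transcripts were translated and matched to C2H2 and KRAB patterns, and RefSeq promoters were identical to the genome for 219 of 219. A marker gene of the fixed lists is not reported here. Functions were tested on simulated data. Scripts used Python 3.11.15 with pandas 2.3.3, numpy 2.4.6 and scipy 1.17.1, and figures were drawn with matplotlib 3.10.9. Alternatives covered windows, TSS sets, AUC limits, list length, membership, AUC measures and scaling.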

Additional observations from a re-analysis of the deposited data

How the results depend on the processing

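Of 73 values recomputed under alternative settings that could move them, 58 stayed within the interval of the reported value or, for counts, within 1.5 times of it. The open share of members stayed between 77.7% and 79.3% under its 12 alternatives. The open share of other chromosome 19 promoters was 78.9% with a 3 kb window, 62.0% with the canonical TSS only and 67.1% with peaks of an AUC of 400 or more. The solvent AUC of members minus others, -0.25 (log2) as reported, became 0.084 per base. With the strongest single peak it was -0.058, which still counted as unchanged under the limit for differences. The 24 h difference in scaled ratio was 0.059 per base and 0.061 in the middle tertile of solvent AUC, where the 6 h difference was -0.032. The tertile, the leaving out of ZFP36 and the KRAB spacing were chosen after seeing the data. The count of members lower at 72 h was 0 with a 3 kb window, with an AUC of 400 or more, without scaling, in the middle tertile and without ZFP36, 2 with the strongest single peak or with scaling by all regions, and 3 per base. Without scaling the members' medians were 0.40, 0.45 and 0.25 at 6, 24 and 72 h, and with scaling by all regions -0.11, -0.054 and -0.14. The count of members higher at 24 h was 3 per base and with scaling by all regions, 70 without scaling and 0 in the middle tertile. Leaving out single replicates was not run, since each list pools both. No paired analysis was possible because the peak lists used here hold no values per replicate. The reads kept behind each list are unknown, so a closed promoter is one without a peak past the authors' threshold.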
